A study of Mus musculus with 10 samples.

Results

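The genes described here are the 9 members of the NLRP4, NLRP9 and NLRP14 branches of the mouse NLRP family (Nlrp4a, Nlrp4b, Nlrp4c, Nlrp4e, Nlrp4f, Nlrp9a, Nlrp9b, Nlrp9c and Nlrp14). They were taken by gene symbol from a table of 22891 genes, and all 9 were found in it and passed the filter on low values, as did 15629 genes in all. The libraries were 5 ovaries labelled Uba3 cKO, a conditional knockout of Uba3, and 5 ovaries labelled Control. All were whole ovaries taken at 3 weeks of age from mice described as non-stimulated, and the strain is given as C57/Bl6/N;129SvEv7. The labels name neither the cells in which Uba3 was deleted, nor the Cre line, nor the deleted exons, nor the alleles the controls carried.

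NLRP proteins are built from a pyrin domain, a nucleotide-binding NACHT domain and a run of leucine-rich repeats. The family is best known for members such as NLRP3, which assemble inflammasomes in immune cells and lead to the release of interleukin-1. A separate group is expressed mainly in oocytes and early embryos, where its best studied members, Nlrp5 among them, are maternal-effect genes: the egg stores their products and the early embryo needs them. In the mouse the NLRP4 and NLRP9 branches have multiplied into several closely related genes, whereas humans carry a single NLRP4 and a single NLRP9.

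The related copies are shown first by their promoters, since members with like promoters and members with unlike ones can then be set beside their levels. RefSeq promoter windows of GRCm38.p6, which run from 250 bases before to 50 bases after an annotated start, were found for 8 of the 9 genes. The windows of Nlrp4b, Nlrp4c and the second annotated start of Nlrp4a resembled each other, as did those of Nlrp9a and Nlrp9c. In the 5 windows below, capitals mark CCAAT on either strand (ATTGG where it lies on the opposite strand), CAGCTG and TATTAAG.
Nlrp4a, second annotated start, chr7:26435364-26435663, plus strand: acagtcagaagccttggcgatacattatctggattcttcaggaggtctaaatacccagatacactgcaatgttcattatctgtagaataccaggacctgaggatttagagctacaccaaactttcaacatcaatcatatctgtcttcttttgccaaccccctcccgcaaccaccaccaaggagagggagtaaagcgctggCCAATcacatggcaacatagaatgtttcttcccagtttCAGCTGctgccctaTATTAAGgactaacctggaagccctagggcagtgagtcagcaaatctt
Nlrp4b, first annotated start, chr7:10687543-10687842, plus strand: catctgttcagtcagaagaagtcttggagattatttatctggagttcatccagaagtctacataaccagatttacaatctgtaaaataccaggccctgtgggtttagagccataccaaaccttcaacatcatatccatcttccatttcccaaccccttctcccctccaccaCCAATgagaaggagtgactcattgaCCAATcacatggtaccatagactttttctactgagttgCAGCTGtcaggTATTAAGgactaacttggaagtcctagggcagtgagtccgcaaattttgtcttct
Nlrp4c, chr7:6044911-6045210, plus strand: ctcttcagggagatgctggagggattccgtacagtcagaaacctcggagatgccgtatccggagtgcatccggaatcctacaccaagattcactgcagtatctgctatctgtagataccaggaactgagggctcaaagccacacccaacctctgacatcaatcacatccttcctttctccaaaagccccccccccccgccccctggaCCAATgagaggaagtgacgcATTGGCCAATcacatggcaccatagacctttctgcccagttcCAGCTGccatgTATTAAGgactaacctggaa
Nlrp9a, chr7:26534773-26535072, plus strand: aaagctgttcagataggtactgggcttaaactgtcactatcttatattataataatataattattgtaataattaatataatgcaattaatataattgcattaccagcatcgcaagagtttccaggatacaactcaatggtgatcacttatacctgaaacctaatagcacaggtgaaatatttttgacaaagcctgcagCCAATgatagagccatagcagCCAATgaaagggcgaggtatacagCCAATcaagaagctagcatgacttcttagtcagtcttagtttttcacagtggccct
Nlrp9c, chr7:26403651-26403950, minus strand: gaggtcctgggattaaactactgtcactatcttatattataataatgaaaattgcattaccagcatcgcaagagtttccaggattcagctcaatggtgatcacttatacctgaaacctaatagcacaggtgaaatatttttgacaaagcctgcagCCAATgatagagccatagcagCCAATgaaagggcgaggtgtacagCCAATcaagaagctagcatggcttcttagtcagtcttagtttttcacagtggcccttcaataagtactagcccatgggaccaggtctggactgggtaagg

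The Nlrp9a and Nlrp9c windows were identical at 95.2% of 227 aligned positions and each held 3 copies of CCAAT. Among all 32544 distinct mouse promoter windows, 3.35% held 3 or more copies on either strand. In the NLRP4 branch the Nlrp4a (second start) and Nlrp4b windows were identical at 75.3% of 304 aligned positions, Nlrp4a and Nlrp4c at 74.5% of 282, and Nlrp4b and Nlrp4c at 74.1% of 282. All 3 held CCAATCA, which 7.80% of all windows hold and which contains CCAAT. All 3 also held CAGCTG, present in 16.4% of all windows and a form of the E-box CANNTG, followed by TATTAAG, present in 1.80%. The annotated start of Nlrp4f on chromosome 13 lies further along a like sequence. The first 45 bases of its window were identical to the last 45 of the Nlrp4a window at 91.1% of positions, and its first 60 are shown for that likeness.
Nlrp4f, chr13:65205907-65205966, minus strand: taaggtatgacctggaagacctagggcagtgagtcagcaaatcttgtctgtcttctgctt
The windows of Nlrp9b and Nlrp4e held no CCAATCA, had 0 and 1 copies of CCAAT, and aligned with those of other members over at most 45 positions. Both held 1 TATTAAG, and Nlrp4e also held 1 CAGCTG. The first annotated start of Nlrp4a had 0 copies of CCAAT and 1 each of CAGCTG and TATTAAG, and aligned with Nlrp4b and Nlrp4c over at most 26 positions. These matches describe letters in the windows and are not evidence of a bound factor.

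The copies are also alike in their coding sequences, which bears on how reads were assigned to them. Over the longest annotated coding sequence of each gene, Nlrp4c and Nlrp4e were identical at 93.9% of aligned bases, Nlrp9a and Nlrp9c at 88.3%, and Nlrp4a and Nlrp4c at 86.8%. Nlrp14 was 70.2% to 72.5% identical to the other 8 members. The longest exact run shared by any pair measured 129 bases, between Nlrp9a and Nlrp9b, and starts at base 589 of both coding sequences; a read that lies inside it fits both genes equally.
Run shared by Nlrp9a and Nlrp9b, chromosome 7, GENCODE M21 coding sequence: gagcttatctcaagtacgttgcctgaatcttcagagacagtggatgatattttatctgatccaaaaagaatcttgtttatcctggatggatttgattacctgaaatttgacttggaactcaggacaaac
For Nlrp4e, 36.9% of all 50-base windows and 11.5% of all 100-base windows of its longest transcript occurred in transcripts of another gene, among them the gene models Gm4541 and Gm16443 and Nlrp4c. The share of 50-base windows was 11.9% for Nlrp4c, 7.08% for Nlrp4f, between 4.99% and 6.54% for the NLRP9 genes, 3.11% for Nlrp4a, spread over 520 other genes, and 0% for Nlrp4b and Nlrp14. The read length, and how reads that fit several genes were counted, are not given in the sources used here, so levels of members with shared windows are uncertain, Nlrp4e most of all. At 100 bases Nlrp4c (0.939%) had a lower share than Nlrp9b (1.36%).

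**Figure D1:**
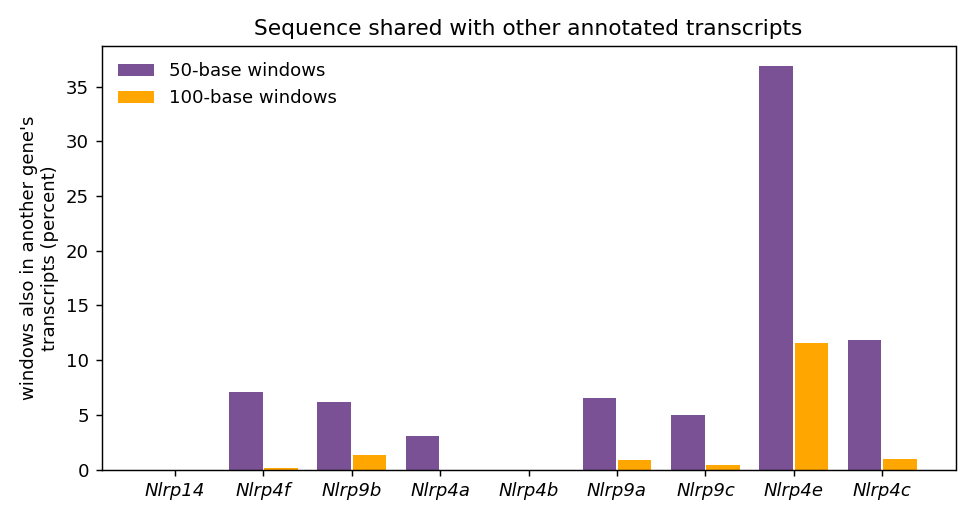
Share of 50-base and 100-base windows of each gene's longest GENCODE M21 transcript that occur exactly, on either strand, in a transcript of another gene; genes run from the highest level per transcript length to the lowest. Nlrp4e reached 36.9% at 50 bases, while Nlrp14 and Nlrp4b stood at 0%.

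Values were deposited in log2 units, with library medians between 6.29 and 6.44 over all genes, and the sequencing depth behind them is unknown. Uba3, the targeted gene, had 10.12, 10.13, 10.12, 10.03 and 10.22 log2 units in Uba3 cKO replicates 1 to 5, against 10.17, 10.09, 9.88, 10.37 and 10.09 in control replicates 1 to 5 (difference 0.0032, standard error 0.081, 95% interval -0.17 to 0.18), and the groups overlapped, so its level in whole ovaries gave no check of the labels. Oocyte content was summarised by the mean of 23 oocyte marker genes that include no member of the family, called the oocyte level here. Its lowest value was 9.15 (Uba3 cKO replicate 5) and its highest 9.94 (control replicate 3). It averaged 9.58 ± 0.31 in Uba3 cKO ovaries and 9.56 ± 0.30 in controls (SD, n = 5 each). Granulosa cell markers varied less, between 12.85 and 13.20 (11 genes). Macrophage markers were low, between 4.79 and 5.19 (5 genes). The other lists covered wider ranges than the oocyte level. Stroma ran from 9.82 to 10.90 (6 genes), theca from 7.76 to 8.71 (6 genes) and endothelium from 7.33 to 8.23 (5 genes). Erythroid markers ran from 7.80 to 9.31 (3 genes) and oviduct epithelium from 4.54 to 5.74 (2 genes tested). Nothing in the labels ties each ovary to its own mouse; p-values therefore measure only the spread between these samples, which may be technical.

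The 9 genes differed widely in abundance, and their order was the same in both groups apart from the closely matched pair Nlrp9a and Nlrp9c. Levels between genes were compared per length, as the log2 value minus log2 of the longest transcript in kilobases. Nlrp14 was highest, at 10.81 ± 0.45 in Uba3 cKO ovaries and 10.73 ± 0.29 in controls (SD, n = 5 each). It was followed by Nlrp4f (8.498 ± 0.35 and 8.54 ± 0.26), Nlrp9b (8.03 ± 0.34 and 7.88 ± 0.26), Nlrp4a (7.36 ± 0.28 and 7.40 ± 0.23), Nlrp4b (7.33 ± 0.32 and 7.33 ± 0.25), Nlrp9a (6.71 ± 0.28 and 6.83 ± 0.25) and Nlrp9c (6.72 ± 0.30 and 6.79 ± 0.30), each with Uba3 cKO ovaries before controls. Nlrp4e (5.29 ± 0.21 and 5.13 ± 0.23) and Nlrp4c (3.83 ± 0.34 and 3.65 ± 0.24) were lowest. Nlrp14 stood 2.25 ± 0.14 log2 units above Nlrp4f within the same library (SD over 10 libraries), and Nlrp4e stood 1.47 ± 0.14 above Nlrp4c. Adjacent genes in the order kept their order in all 10 libraries, except Nlrp4a over Nlrp4b (7 of 10 libraries, difference 0.057 ± 0.052) and Nlrp9a over Nlrp9c (5 of 10 libraries, 0.018 ± 0.12). Their order was thus not the same in every library. For scale, Nlrp5, the maternal-effect gene of the subcortical maternal complex of the egg, lay between Nlrp14 and Nlrp4f at 9.77 ± 0.48 and 9.74 ± 0.24. The levels depend on the transcript whose length is used. With the shortest protein-coding transcript, which is an annotated fragment of 458 bases for Nlrp4f and 454 for Nlrp9b, Nlrp14 (11.96 over all libraries) stood 0.49 ± 0.14 above Nlrp4f (11.47), Nlrp4b (9.42) stood above Nlrp4a (7.79) in all 10 libraries, and Nlrp5 (9.81) lay below Nlrp9b (10.83). With the longest coding sequence, chosen after seeing these values, Nlrp14 stood 2.05 ± 0.14 above Nlrp4f, and the 9 genes had the same order of means as with the longest transcript.

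As a share of the summed linear level per length of all 9 genes, Nlrp14 made up 59.7% ± 2.47 in Uba3 cKO ovaries and 58.4% ± 1.75 in controls (SD, n = 5 each). Single libraries ran from 56.2% in control replicate 3 to 62.1% in Uba3 cKO replicate 4. Nlrp4f made up 12.03% ± 0.904 and 12.8% ± 0.452, and Nlrp9b 8.66% ± 0.471 and 8.10% ± 0.372. Nlrp4c, the smallest contributor, made up 0.474% ± 0.0374 and 0.433% ± 0.0324. All shares overlapped between the groups. With the length of the shortest protein-coding transcript Nlrp14 made up 40.7% ± 2.27 in Uba3 cKO ovaries and 39.7% ± 1.62 in controls, Nlrp4f 27.9% ± 1.71 and 29.5% ± 0.726, and Nlrp9b 19.1% ± 0.928 and 17.8% ± 0.634. With the longest coding sequence the share of Nlrp14 was 57.1% ± 2.53 and 55.7% ± 1.76.

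**Figure D2:**
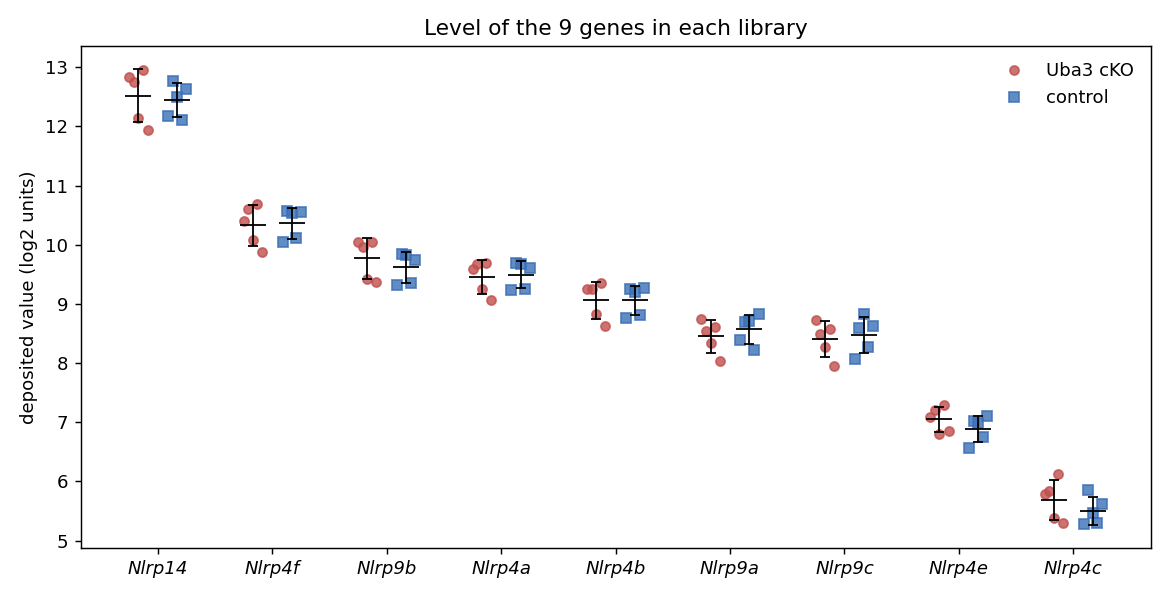
Deposited log2 value of each gene in each library, Uba3 cKO (circles) and control (squares), with the group mean and SD (bars, n = 5 each). Genes run from the highest level per length to the lowest. Nlrp14 lies at 11.94 to 12.95 and Nlrp4c at 5.29 to 6.12, and the groups overlap for every gene.

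No difference between Uba3 cKO ovaries and controls passed the test for any of the 9 genes. Across the whole table limma called 0 of 15629 genes (0%) at an adjusted p of 0.05 and 0 of the 9 members. At an unadjusted p under 0.05 there were 0 members, against 1.79% of all tested genes, and 0 members had groups that did not overlap, against 0.320% of all tested genes. Means were higher in Uba3 cKO ovaries for 5 genes (Nlrp4b, Nlrp4c, Nlrp4e, Nlrp9b and Nlrp14) and lower for 4 (Nlrp4a, Nlrp4f, Nlrp9a and Nlrp9c). The median difference of the 9 genes was 0.0016 log2 units, beside 0.00034 over all tested genes. The 95% intervals lay between -0.43 and 0.53 for all 9, a fold between 0.743 and 1.44 in whole ovaries on the deposited scale. The transform behind that scale is not named, so fold changes of the counts may be larger. In bulk samples, fewer cells of a type and less RNA per cell cannot be told apart.

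Nlrp14 is a maternal-effect gene in the mouse; its protein has been reported to protect UHRF1, a factor of DNA methylation, and the mitochondrial sodium-calcium exchanger encoded by Slc8b1 in oocytes. Its values were 12.84, 12.75, 12.14, 12.95 and 11.94 log2 units in Uba3 cKO replicates 1 to 5, against 12.17, 12.77, 12.50, 12.11 and 12.64 in control replicates 1 to 5. Both the highest and the lowest library carried the Uba3 cKO label, and the control values lay between them. The difference was 0.083 (standard error 0.20, 95% interval -0.34 to 0.51, limma adjusted p = 0.9999). Uhrf1 stood at 11.67 ± 0.26 and 11.66 ± 0.15, and Slc8b1 at 7.42 ± 0.17 in Uba3 cKO ovaries and 7.58 ± 0.15 in controls (SD, n = 5 each), with a difference of -0.16 (standard error 0.10, limma adjusted p = 0.9999).

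In the NLRP4 branch, Nlrp4f, whose protein is tied to the subcortical maternal complex and whose loss slows preimplantation development in mice, had 10.39, 10.60, 10.08, 10.69 and 9.87 log2 units in Uba3 cKO replicates 1 to 5, against 10.05, 10.58, 10.54, 10.11 and 10.55 in control replicates 1 to 5. The same 4 libraries were low as for Nlrp14: Uba3 cKO replicates 3 and 5 and control replicates 1 and 4. Its difference was -0.038 (standard error 0.16). Nlrp4a and Nlrp4b, close relatives of human NLRP4, which in human cells restrains interferon induction through the kinase TBK1, differed by -0.038 (standard error 0.14) and 0.0016 (standard error 0.15). Nlrp4a ran from 9.06 to 9.69 in Uba3 cKO ovaries and from 9.24 to 9.69 in controls, and Nlrp4b from 8.62 to 9.35 and from 8.76 to 9.27 in the same order.

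The least abundant members had the widest positive differences, still within the spread. Nlrp4e, whose knockdown in mouse zygotes stops preimplantation development, had 7.09, 7.20, 6.81, 7.29 and 6.86 log2 units in Uba3 cKO replicates 1 to 5, against 6.56, 7.02, 6.99, 6.75 and 7.11 in control replicates 1 to 5. The difference was 0.17 (standard error 0.13, 95% interval -0.11 to 0.44). Nlrp4c, its nearest relative by coding sequence, had 5.80, 5.83, 5.38, 6.12 and 5.31 in Uba3 cKO replicates 1 to 5, against 5.29, 5.86, 5.47, 5.30 and 5.61 in control replicates 1 to 5, a difference of 0.18 (standard error 0.16, 95% interval -0.16 to 0.53). Libraries of both groups were intermixed for both genes.

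In the NLRP9 branch, Nlrp9b, known in the mouse gut epithelium as a sensor that restricts rotavirus together with the helicase DHX9, had 10.04, 9.97, 9.42, 10.04 and 9.37 log2 units in Uba3 cKO replicates 1 to 5, against 9.33, 9.84, 9.83, 9.35 and 9.75 in control replicates 1 to 5. The 3 highest libraries carried the Uba3 cKO label, and the groups overlapped. Its difference was 0.15 (standard error 0.16, 95% interval -0.20 to 0.49). The other NLRP9 genes had the lower mean in Uba3 cKO ovaries. Nlrp9a averaged 8.45 ± 0.28 and 8.57 ± 0.25 (SD, n = 5 each), a difference of -0.12 (standard error 0.14), and Nlrp9c 8.40 ± 0.30 and 8.48 ± 0.30, a difference of -0.073 (standard error 0.16). Exact two-sided permutation tests over the samples, 1 for each of the 9 genes, gave no p below 0.270, where 5 against 5 libraries can reach 0.00794.

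**Figure D3:**
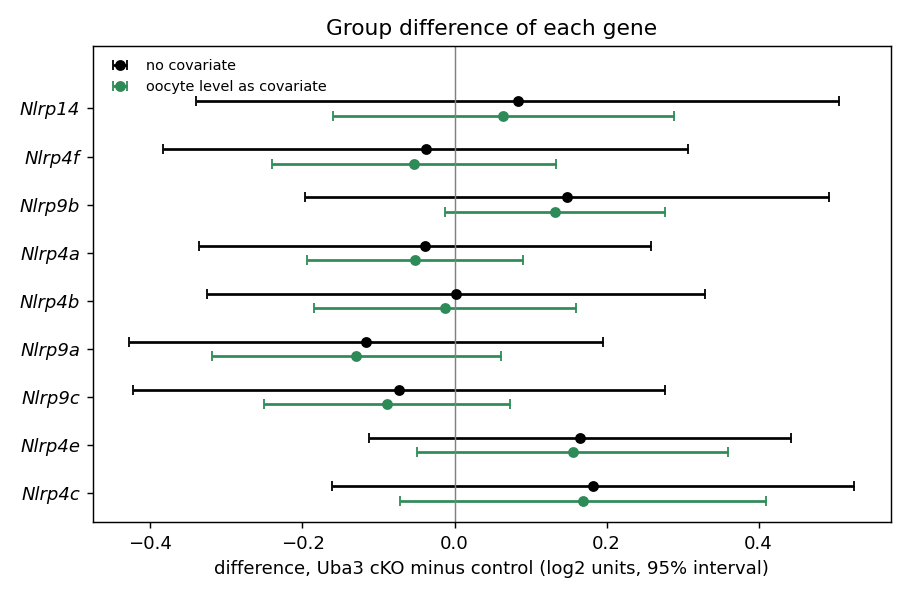
Difference in log2 units, Uba3 cKO minus control, with its 95% interval from limma for each gene, without a covariate (black) and with the oocyte level of the library as covariate (green). All intervals include 0, and those with the covariate are narrower, for instance -0.013 to 0.28 in place of -0.20 to 0.49 for Nlrp9b.

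The 9 genes varied more between libraries of the same group than between the group means. For all 9 genes the 4 lowest libraries were the same, Uba3 cKO replicates 3 and 5 and control replicates 1 and 4, and these were also the 4 with the lowest oocyte level. Uba3 cKO replicate 4 was highest for 7 of the 9 genes, and the lowest library was Uba3 cKO replicate 5 for 6 genes and control replicate 1 for 3. The SD over the 10 libraries had a median of 0.29 for the 9 genes, beside 0.14 over all tested genes. On the deposited scale Nlrp14 covered the widest range, 2.01-fold from its lowest to its highest library, and Nlrp4a the narrowest, 1.55-fold.

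Most of the 9 genes rose with the oocyte level, which was built without them. This relation was examined after the data were seen. A limma fit held group and the oocyte level as terms. In it 7 of 9 members rose with the oocyte level at an adjusted p of 0.05 over all genes, beside 2.38% of all tested genes. The latter, 372 genes, included 18 of the 23 markers that make up the oocyte level. The slopes, in log2 units per log2 unit of oocyte level, ran from 0.57 (standard error 0.17, adjusted p = 0.0989) for Nlrp4e to 1.09 (standard error 0.19, adjusted p = 0.00950) for Nlrp14. Nlrp9b had a slope of 0.94 (standard error 0.12, adjusted p = 0.00213) and Nlrp9c 0.93 (standard error 0.13, adjusted p = 0.00431). Besides Nlrp4e, Nlrp4c did not pass (slope 0.75, standard error 0.20, adjusted p = 0.0707). Leaving out 1 library at a time kept between 6 and 8 members past the threshold, except that without Uba3 cKO replicate 5, the library with the lowest oocyte level, 2 passed (Nlrp9b and Nlrp9c), while 0.742% of all tested genes did.

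Over the 10 libraries Pearson's r to the oocyte level was highest for Nlrp4a (r = 0.94, permutation p = 0.00060; Spearman's rho = 0.82, p = 0.0063) and Nlrp9c (r = 0.94, permutation p = 0.00018; rho = 0.92, p = 0.00054). It was lowest for Nlrp4e (r = 0.75, permutation p = 0.0146; rho = 0.61, p = 0.0676). Of all tested genes, 5.08% had an r of at least 0.75. Without the 2 libraries farthest from the median oocyte level, Uba3 cKO replicate 5 and control replicate 1, r was 0.89 for Nlrp4a, 0.90 for Nlrp9c and 0.69 for Nlrp4e. These 9 relations were computed for all 10 libraries together, and with deviations from the group means r ran from 0.79 for Nlrp4c to 0.95 for Nlrp9b. Each group alone, with 5 libraries, was too small for a correlation.

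**Figure D4:**
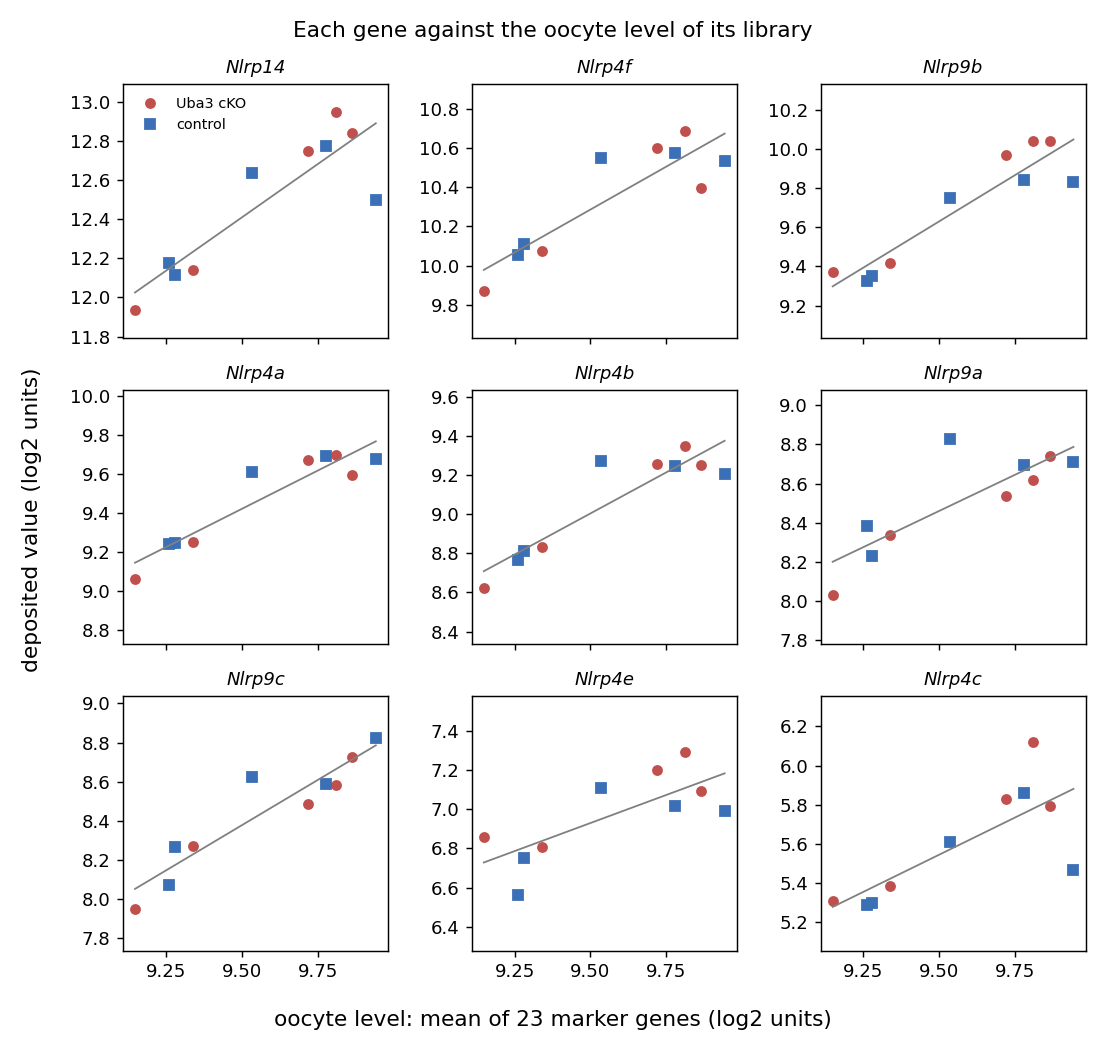
Deposited log2 value of each gene against the oocyte level of its library (mean of 23 marker genes, log2 units), for Uba3 cKO (circles) and control (squares), with a least-squares line. All vertical axes span the same range. Libraries of both groups are mixed along the line, and control replicate 3, at the right end, lies 0.39 below the line for Nlrp14 and 0.42 below it for Nlrp4c.

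With the oocyte level as covariate the standard errors of the group difference were smaller, from 0.065 for Nlrp4a to 0.11 for Nlrp4c, and 0 members were called (0% of all genes). At an unadjusted p under 0.05 there were 0 members, against 2.76% of all tested genes. Nlrp9b came closest, with a difference of 0.13 (standard error 0.066, 95% interval -0.013 to 0.28, limma adjusted p = 0.9999). Nlrp4c differed by 0.17 (standard error 0.11) and Nlrp4e by 0.16 (standard error 0.094). The mean of Zp1, Zp2, Zp3, Gdf9 and Bmp15, called the zona level, was used in its place after the data had been seen. All 5 genes are also among the 23 oocyte markers, so the zona level is not independent of the oocyte level. With it Nlrp9b differed by 0.19 (standard error 0.057), Nlrp4c by 0.22 (standard error 0.091) and Nlrp4e by 0.19 (standard error 0.086). By limma these 3 members had an unadjusted p under 0.05, beside 2.92% of all tested genes, and 0 members passed adjustment (adjusted p = 0.9999 for each).

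The 9 genes also rose and fell with each other across libraries. Over the 10 libraries, as deviations from the group means, the 36 pairs had a Pearson r between 0.72 (Nlrp4c and Nlrp9c) and 0.99 (Nlrp4a and Nlrp4b), with a median of 0.91. The r of each gene to the mean of the other 8 ran from 0.89 for Nlrp9c to 0.997 for Nlrp4b. These values are descriptions, since the genes share their libraries. Once the regression on the oocyte level was removed, pairs ran from -0.33 to 0.96 with a median of 0.59. Nlrp4a, Nlrp4b and Nlrp4f still moved alike, with r between 0.90 and 0.96 in their 3 pairs, and between 0.83 and 0.95 without control replicate 5. With the zona level in place of the oocyte level, these 3 pairs ran from 0.76 to 0.88, and all pairs had a median of 0.38. Nlrp4c, Nlrp4e, Nlrp9b and Nlrp14 had r between 0.61 and 0.88 in their 6 pairs. Without control replicate 3, the library where Nlrp4c and Nlrp14 fell farthest below the line, the lowest of these 6 was 0.39. Without control replicates 3 and 5 it was 0.20. Control replicate 3 also had the lowest quality weight in limma, 0.26, against 0.87 to 1.52 for the other libraries. These groupings were made after the values were seen and were not separate. Between them r ran from 0.39 to 0.84 beside the oocyte level. Nlrp14 had a higher r to Nlrp4b (0.84), Nlrp4a (0.70) and Nlrp4f (0.69) than to Nlrp4e (0.61).

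Likeness of promoters and likeness across libraries did not fully coincide. Nlrp9a and Nlrp9c, whose promoter windows were identical at 95.2% of 227 aligned positions, had an r of 0.67 beside the oocyte level. Without control replicate 5, in which both lay highest above the line (0.34 and 0.22), this r was 0.098. Nlrp4c, whose window aligned with those of Nlrp4a and Nlrp4b over nearly its whole length, had an r of 0.49 and 0.63 to them beside the oocyte level, while its highest r was to Nlrp14 (0.88). Without control replicate 3 its r was 0.27 to Nlrp4a, 0.28 to Nlrp4b and 0.48 to Nlrp14, and its highest was to Nlrp4e (0.66). Nlrp9b, whose annotated window aligned with the others only over short stretches, had its highest r to Nlrp4e (0.87). Whether these patterns reflect the promoters, or reads that fit both genes of a pair such as Nlrp4c and Nlrp4e, was not tested.

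**Figure D5:**
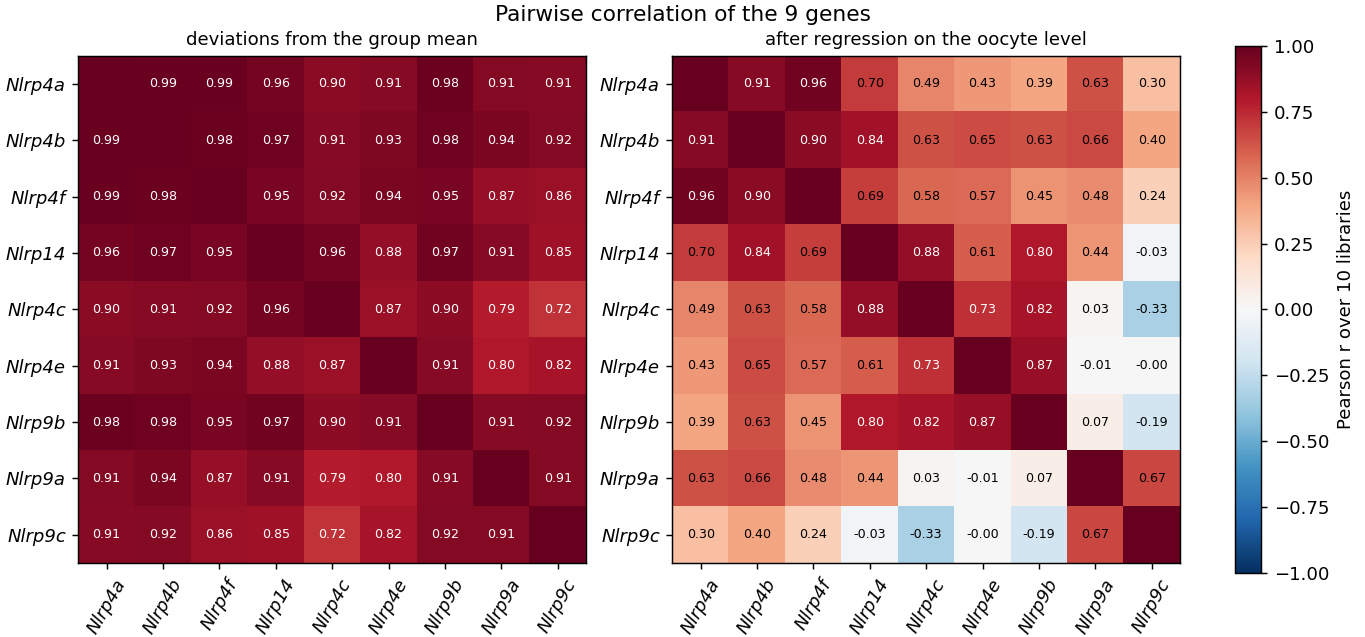
Pearson r of each pair of genes over the 10 libraries, as deviations from the group mean (left) and after regression on the oocyte level (right), on a scale from -1 to 1. On the left all 36 pairs lie at 0.72 or above; on the right they run from -0.33 to 0.96, with Nlrp4a, Nlrp4b and Nlrp4f between 0.90 and 0.96.

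Among genes outside the family with a mean of at least 6 log2 units, 126 of 11941 (1.06%) had an r of at least 0.9 to the mean of the 9 genes over the 10 libraries, as deviations from the group means. The 6 most alike were Fa2h (r = 0.99), a fatty acid hydroxylase, Klhl8 (r = 0.99), a Kelch-like adaptor, Esrp1 (r = 0.98), an epithelial splicing regulator, Cpeb1 (r = 0.98), which controls the polyadenylation of stored maternal mRNA, Zp1 (r = 0.98), a zona pellucida protein, and Akap1 (r = 0.97), a kinase anchor of the mitochondrial surface. Cpeb1 and Zp1 are themselves among the 23 oocyte markers. Akap1 ranged only from 10.55 to 10.82, while Zp1 ranged from 10.07 to 11.24.

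Other genes tied to the family were described from lists. All 7 genes of the other oocyte NLRP and subcortical maternal complex list, which holds Nlrp5, Nlrp2, Ooep, Tle6, Khdc3, Padi6 and Zbed3, followed the 9 genes, with r between 0.82 (Khdc3) and 0.96 (Padi6). Of these, 2 had the higher mean in Uba3 cKO ovaries and 5 the lower, with 0 called. Khdc3 stood at 7.67 ± 0.45 in Uba3 cKO ovaries and 7.84 ± 0.26 in controls, and Zbed3 at 12.86 ± 0.23 and 12.92 ± 0.31 (SD, n = 5 each). Among genes listed as germline transcription factors, which include Gata4 and Tbp, 8 of 9 were tested. The higher mean in Uba3 cKO ovaries was held by 4 and the lower by 4, with 0 called. Their median r to the mean of the 9 genes was 0.66, with Gata4 at 0.30 and Tbp at -0.0011. Nobox, an oocyte homeobox factor, had an r of 0.95 to the mean of the 9 genes, and Lhx8 0.93. Taf4b, a subunit of the general factor TFIID that is enriched in the ovary, had -0.37, at 10.37 ± 0.15 in Uba3 cKO ovaries and 10.23 ± 0.30 in controls. Figla, the oocyte factor of zona genes, stood at 5.16 ± 0.23 and 5.36 ± 0.48.

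NLR genes known from somatic and immune cells had r values to the mean of the 9 genes from -0.68 (Nlrp10) to 0.77 (Nod2). Of 17 listed, 14 were in the table and 9 passed the filter, 5 with the higher and 4 with the lower mean in Uba3 cKO ovaries and 0 called. Their median r was 0.18, beside 0.90 for the 7 genes of the maternal complex list and -0.049 over all tested genes; the difference between the lists was not tested. Nlrp3, the sensor of the classical inflammasome, stood at 2.83 ± 0.094 in Uba3 cKO ovaries and 2.78 ± 0.098 in controls, under the filter. Nlrp10, an NLRP protein without leucine-rich repeats, had an r of -0.68 and stood at 8.13 ± 0.41 and 8.41 ± 0.19, and Nlrx1, a mitochondrial NLR protein, at 7.47 ± 0.055 and 7.61 ± 0.13. Of 9 inflammasome effectors 6 were tested, 2 with the higher and 4 with the lower mean and 0 called. Casp1, the protease of the inflammasome, stood under the filter at 2.20 ± 0.034 and 2.19 ± 0.11, and Pycard, its adaptor, at 6.33 ± 0.095 and 6.49 ± 0.16. Txnip, a thioredoxin inhibitor, stood at 13.22 ± 0.20 and 13.43 ± 0.25. Of 7 reported partners of family proteins, 5 had the higher and 2 the lower mean in Uba3 cKO ovaries and 0 were called, with Tbk1 at 9.07 ± 0.048 and 8.98 ± 0.17. Uhrf1 alone among these partners had an r above 0.75 to the 9 genes (0.86).

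Most of the 9 genes lie on chromosome 7 and only Nlrp4f on chromosome 13. By the order of genes in GENCODE M21 they form 6 runs among tested genes, 1 of which holds Nlrp9c, Nlrp4a and Nlrp9a side by side and another Nlrp9b and Nlrp4e. The 3 nearest tested genes on either side of each run gave 36 neighbours, whose median r to the mean of the 9 genes was 0.11, with a range from -0.79 (Ctsl, beside Nlrp4f) to 0.96. The 2 neighbours at 0.9 or above were Nlrp5 and Nlrp2. Next came Rbmxl2, beside Nlrp14, at 0.89, and Gm5065, beside Nlrp4c, at 0.82. Both were named after their values were seen. Annotated genes that overlap a member were few, and the 2 of them in the table, Gm45379 inside Nlrp4b and Krt8-ps inside Nlrp4e, were low, at 2.49 and 1.13.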

How the data were processed

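Whole-ovary RNA was extracted with a PicoPure kit, and TruSeq libraries were read on an Illumina NovaSeq, per the labels' protocols. The deposited table holds 1 value per gene and library on a log2 scale, normalized by the authors, from -0.21 to 20.19; its transform is not named. Per the submitters' processing notes the build was GRCm39 and DESeq2, featureCounts, STAR and fastp were used; versions and roles are not given there. No counts could be recovered, so depth and counting error are unknown. No pair of libraries had identical columns.

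Symbols were found for 22188 of 22891 Ensembl identifiers through GENCODE M21. That annotation and the RefSeq sequences are on GRCm38 and thus on an older build than GRCm39, and coordinates are given only with the sequences taken from them. The test was limma (version 3.58.1, R version 4.3.3) on genes whose mean reached 3.32 log2 units, which is 10 on a linear scale, using a trended prior variance, no covariate and Benjamini-Hochberg adjustment over all tested genes at 0.05. Standard errors, intervals and adjusted p-values come from this fit, which was tested on simulated data. The simulated shifts were put only into more abundant genes, not into genes as low as Nlrp4c or Nlrp4e. The outcome of that test is not reported here. Single values were compared by exact permutation over samples, and correlations by 100000 resamples, with scipy 1.17.1. Promoter windows and coding sequences were aligned with Biopython 1.88, locally for promoters and end to end for coding sequences.

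The genes, lists and tests were chosen with earlier results of these data known. Named were the 9 genes, the 2 members of each pathway list with the smallest p, the 6 genes most like the 9, and neighbours; others were named after their values were seen. Of the listed genes, 3 somatic NLR genes and 1 oocyte marker were not matched and are not analysed here. Alternatives were other transcript lengths, filters, centring, quality weights, no trend, a replicate block, covariates and leaving out each library.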

Additional observations from a re-analysis of the deposited data

How the results depend on the processing

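No gene and no member was called under any of the 18 alternatives of the group comparison (0 in each), including no filter, a mean of at least 50 (which leaves out Nlrp4c), subtracted library medians, quality weights, no trend, both covariates and each library left out. Under the replicate block 0 genes and 0 members were called too. Same-numbered libraries did not deviate together (correlations from -0.27 to 0.28). This cannot decide whether the numbers pair samples, since paired ovaries may still differ in cell content. The signs of small differences were not stable. Nlrp4a turned to 0.0054 with quality weights, Nlrp4b to -0.0036 with subtracted medians and -0.013 with the oocyte covariate, and Nlrp4f to 0.012 with quality weights and 0.0041 with the zona covariate. Uba3 turned to -0.0020 with subtracted medians, -0.048 with quality weights and -0.0081 with the zona covariate. Leaving out 1 library, differences ran from -0.10 to 0.059 for Nlrp4a, -0.072 to 0.11 for Nlrp4b, -0.13 to 0.075 for Nlrp4f, -0.17 to 0.041 for Nlrp9c, -0.023 to 0.23 for Nlrp14 and -0.056 to 0.066 for Uba3. Those of Nlrp4c (0.074 to 0.28), Nlrp4e (0.084 to 0.23), Nlrp9a (-0.20 to -0.011) and Nlrp9b (0.075 to 0.25) kept their sign under every alternative run but moved by over 1.5 times. The number of members called on the slope with the oocyte level ran from 2 (without Uba3 cKO replicate 5) to 8 (without control replicate 3), and was 8 with quality weights or the zona level; the cause was not tested. Levels per length moved by more than their SD over libraries for 7 of 9 genes with the shortest protein-coding transcript. Unknown depth limits what can be said of Nlrp4c, the lowest of the 9.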

Other observations

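Nlrp4g, a further NLRP4 gene on chromosome 9 outside the 9 described, was named after its values were seen. It stood at 7.18 ± 0.26 in Uba3 cKO ovaries and 7.14 ± 0.12 in controls (SD, n = 5 each), with a difference of 0.042 (standard error 0.12, limma adjusted p = 0.9999). Over the 10 libraries its r to the mean of the 9 genes was 0.91, as deviations from the group means. Nod2, a cytosolic sensor of bacterial cell wall fragments, was the only gene of the somatic NLR list with an r above 0.75 to them (0.77), at 5.36 ± 0.26 in Uba3 cKO ovaries and 5.20 ± 0.23 in controls. Median r to the mean of the 9 genes was 0.83 for the oocyte markers, 0.50 for oviduct epithelium (2 genes tested), 0.45 for endothelium, 0.27 for stroma, -0.034 for macrophages, -0.041 for theca, -0.23 for erythroid cells and -0.34 for granulosa cells.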
